A study of Rattus norvegicus with 10 samples.

Results

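Aquaporins are the water channels of the kidney, and 9 of their genes were followed in kidneys of PCK rats of both sexes. They were taken by symbol from a table of 32545 genes: Aqp1, Aqp2, Aqp3, Aqp4, Aqp5, Aqp7, Aqp8, Aqp9 and Aqp11. Each symbol had 1 row. Aqp1 and Aqp2 had the highest means over the 10 rats, and the means of the sexes lay in opposite order. Aqp1 averaged 445 ± 59.4 FPKM in males against 314 ± 92.4 FPKM in females, and Aqp2 averaged 79.5 ± 18.8 against 117 ± 22.7 FPKM (SD, n = 5 per sex). Neither passed the test over all genes, and for both genes the ranges of the sexes overlapped.

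Water crosses the renal epithelium through aquaporins, which sit in the apical membrane, the basolateral membrane or inside the cell. AQP1 is the constitutive channel of the proximal tubule and thin descending limb. In the principal cells of the collecting duct, vasopressin acting through the V2 receptor and cAMP raises Aqp2 transcription and moves AQP2 to the apical membrane, and water leaves the cell through basolateral AQP3 and AQP4. AQP3, AQP7 and AQP9 also carry glycerol.

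The comparison is of 5 males with 5 females, each rat giving 1 RNA-seq library from its renal cortex. All rats of both sexes were PCK, a strain with a mutation in Pkhd1 that models autosomal recessive polycystic kidney disease, and received no treatment named in the sources. A group without the mutation was not analysed here, so every comparison is between the sexes within cystic kidneys. The age is 12 to 14 weeks in the design text and 10 to 12 weeks in the study's methods, which also state that the rats came from 2 litters, and the labels give the tissue as kidney. The rats count as replicates, so p-values measure the spread between rats, some of which shared a litter.

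Depth was 13912569 to 20285911 reads on genes per library. Expression is given as FPKM, fragments scaled to the length of the gene and by a factor for the library, which can be compared between genes as well as between rats. The 6 proximal tubule markers, which include the receptors Lrp2 and Cubn, summed to between 1153 and 2370 FPKM per rat, and Slc14a2 (ENSRNOG00000056021), the urea transporter of the inner medulla, had 0 to 3 reads in 9 libraries. Female 2 stood apart, with 92 Slc14a2 reads (2.24 FPKM) in that row and 26.8% of its reads on mitochondrial genes, the highest share of the 10 libraries. The second Slc14a2 row (ENSRNOG00000061714) did not set it apart, with 1 read in female 2 and 4 reads each in females 3 and 4. The 3 inner medulla genes summed to 32.1 FPKM in female 2 and to 33.6 FPKM in male 5. The part of female 2 in the results was not tested, and the aquaporin values that it moved by over 1.5 times, or whose call or sign it turned, are also given without it.

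The promoters of Aqp1, the most abundant member, and of Aqp2 and Aqp3, the apical and basolateral channels of the same cell, are shown because the levels of these genes, and the ratio of the last pair, are what the results turn on. Each line gives the 250 bases before the transcription start in the gene's own direction, from RefSeq on GRCr8. Capitals mark TATAA, the core of a TATA box, TGACG, the core of a cAMP response element, and GATAA, a site bound by GATA factors. They were searched on both strands, and CGTCA and TTATC are TGACG and GATAA read from the other strand.
Aqp1, chr4:85812534-85812783, plus strand: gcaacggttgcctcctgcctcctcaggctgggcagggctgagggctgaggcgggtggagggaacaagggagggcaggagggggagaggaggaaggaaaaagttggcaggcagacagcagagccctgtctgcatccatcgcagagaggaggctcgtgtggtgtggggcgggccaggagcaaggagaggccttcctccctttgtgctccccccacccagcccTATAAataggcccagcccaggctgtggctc
Aqp2, chr7:132590036-132590285, plus strand: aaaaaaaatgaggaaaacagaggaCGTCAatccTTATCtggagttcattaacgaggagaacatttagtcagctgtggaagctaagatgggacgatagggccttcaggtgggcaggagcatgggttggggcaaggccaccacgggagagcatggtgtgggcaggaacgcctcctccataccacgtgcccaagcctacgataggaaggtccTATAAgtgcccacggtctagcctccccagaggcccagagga
Aqp3, chr5:61040684-61040933, minus strand: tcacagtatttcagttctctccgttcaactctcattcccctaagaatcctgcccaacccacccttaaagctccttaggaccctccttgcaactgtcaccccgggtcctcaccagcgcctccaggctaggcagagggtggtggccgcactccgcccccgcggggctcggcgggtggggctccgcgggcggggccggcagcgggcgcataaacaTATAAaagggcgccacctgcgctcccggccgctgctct
TATAA began 30 bases before the start in Aqp1, 41 in Aqp2 and 38 in Aqp3. Only the Aqp2 window, among those of the 8 members with a promoter sequence, held all of the 3 motifs, with CGTCA beginning 226 and TTATC 217 bases before the start. In 33469 windows of this length, TATAA in either orientation was present in 24%, TGACG in 18.2% and GATAA in 23.5%, so each is common by itself. The share of windows with all 3 was not computed, so how unusual the Aqp2 window is cannot be said. A match is a description of the letters, and binding was not measured.

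By mean FPKM the 9 genes lay between rank 189 and rank 19319 of the table. Aqp1 was first, followed by Aqp2, Aqp7, Aqp3, Aqp11, Aqp4, Aqp5, Aqp9 and Aqp8. Of the remaining aquaporin rows, Aqp6 lay between Aqp3 and Aqp11, Aqp12a lay between Aqp9 and Aqp8, and Mip, the lens channel, was lowest. Aqp1 exceeded Aqp2 in 10 of 10 rats, by 1.70-fold to 7.97-fold. Aqp11 exceeded Aqp4 in 10 of 10 rats, by 4.63-fold to 17.6-fold, and Aqp4 exceeded Aqp5, and Aqp5 exceeded Aqp9, in 10 of 10 rats as well. The genes in between were closer: Aqp7 exceeded Aqp3 in 9 of 10 rats, and Aqp2 exceeded Aqp7 in 6 of 10. That last order differed between the sexes as a description, with Aqp2 above Aqp7 in 5 of 5 females and in 1 of 5 males.

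**Figure D1:**
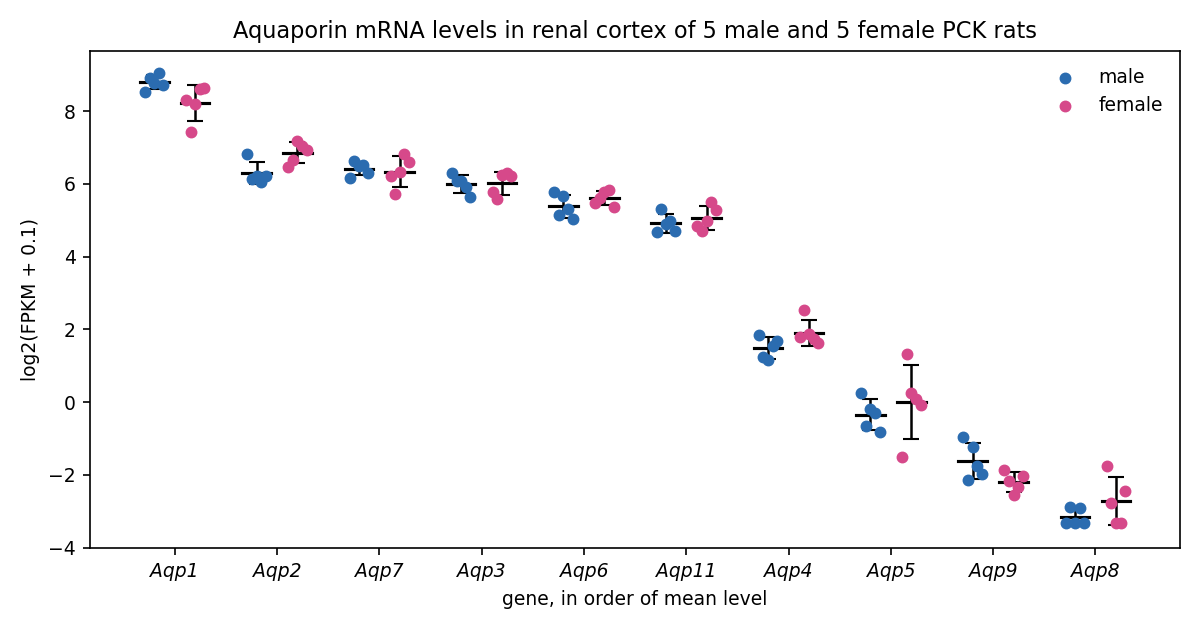
Expression of the 9 aquaporin genes and of Aqp6 in each rat, as log2(FPKM + 0.1), by gene in order of mean level. Blue points are the 5 males and pink points the 5 females, with the mean as a line and the SD as bars. The ranges of the sexes overlap for every gene.

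For the sex difference, each gene had a limma test on log2(FPKM + 0.1), with Benjamini-Hochberg adjustment over the 17631 genes whose mean reached 0.1 FPKM. Mean FPKM was also compared by a two-sided exact permutation test, whose smallest possible p is 0.00794. By limma at an adjusted p of at most 0.05, 0 of the 8 members that passed the filter were called, against 2.4% of all genes tested (1.32% with a log2 fold change of at least 1 either way as well). The ranges of the sexes were apart for 0 of the 9, against 5.1% of all genes tested. The unadjusted limma p was under 0.05 for 2 of the 8 (Aqp1 and Aqp2), against 15.7% of all genes. By the exact test, 3 of the 9 (Aqp1, Aqp2 and Aqp9) had a p of at most 0.05, against 14.8% of all genes. Both shares rest on few genes, and none of the 3 kept such a p with every rat left out in turn. In log2 fold change, females over males, 5 of the 8 were positive and 3 negative, with a median of 0.083 beside -0.0066 for all genes tested. In bulk tissue, fewer cells of a type and less RNA per cell cannot be told apart.

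**Figure D2:**
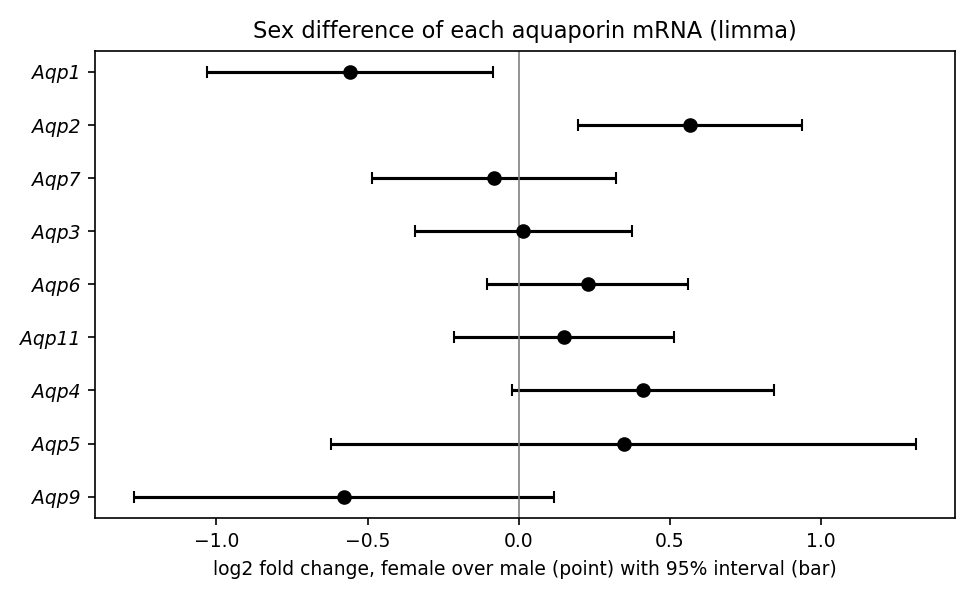
Log2 fold change of each aquaporin gene, females over males, from limma on log2(FPKM + 0.1), with its 95% interval. The interval lies below 0 for Aqp1 and above 0 for Aqp2, and spans 0 for the other genes. None had an adjusted p of at most 0.05.

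Aqp1 (ENSRNOG00000011648, Rnor_6.0 chromosome 4, 85551502 to 85569360, plus strand), the proximal tubule channel, had its lower mean in females. Males 1 to 5 had 368, 478, 433, 525 and 421 FPKM. In females 1 to 5 it was 314, 171, 293, 391 and 399 FPKM. The females with the highest values lay above male 1 alone, and female 2 was lowest of all. The log2 fold change, females over males, was -0.56 (SE 0.22, 95% interval -1.03 to -0.08), with an adjusted p of 0.233 by limma and an exact permutation p of 0.0317. Without female 2, the 4 remaining females averaged 349 ± 53.9 FPKM (SD, n = 4), the log2 fold change was -0.35 and the exact permutation p was 0.0556. It was also above 0.05 without male 2, male 3 or male 4 (up to 0.0635).

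As a share of the summed FPKM of all 12 aquaporin rows, Aqp1 made up 59.1% ± 4.80 in males and 46.2% ± 6.03 in females (SD, n = 5 per sex). The sum itself was 752 ± 53.7 FPKM in males against 669 ± 145 FPKM in females (SD, n = 5 per sex), and 722 ± 95.2 FPKM in the females without female 2 (SD, n = 4), which was lowest with 455 FPKM. Without female 2 the Aqp1 share of the females was 48.4% ± 4.16 (SD, n = 4). The sums of the proximal tubule markers ranged from 1153 to 2244 FPKM in the males and from 1189 to 2370 FPKM in the females, with the lowest female sum in female 2. Of these 6 genes 3 had a higher and 3 (Slc34a1, Hnf4a and Slc4a4) a lower mean in females, and 1 was called, against 2.4% of all genes tested. It was Cubn, the intrinsic factor receptor, with 49.98 ± 12.2 FPKM in males against 81.0 ± 11.9 FPKM in females (SD, n = 5 per sex, limma adjusted p = 0.0467). That call held in 2 of the 10 fits with a rat left out, where the limma adjusted p was as high as 0.122.

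Aqp7 (ENSRNOG00000009686, chromosome 5, 57358327 to 57372239, minus strand) encodes the water and glycerol channel of the straight proximal tubule. It was 70.9, 98.6, 90.2, 91.6 and 79.1 FPKM in males 1 to 5. Females 1 to 5 had 73.8, 52.6, 80.8, 113 and 97.0 FPKM. The female values enclosed the whole male range, and the means were 86.1 ± 11.0 and 83.5 ± 23.1 FPKM (SD, n = 5 per sex). The log2 fold change was -0.08 (95% interval -0.49 to 0.32) with an adjusted p of 0.882 by limma, and the exact permutation p was 0.841. Without female 2 the sign turned, with a log2 fold change of 0.074 and a difference of 5.14 FPKM, females minus males (exact permutation p = 0.627).

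Aqp11 (ENSRNOG00000013358, chromosome 1, 162703442 to 162713610, minus strand) encodes a channel of intracellular membranes in the proximal tubule, and mice that lack it develop polycystic kidneys. Males 1 to 5 had 25.4, 39.7, 29.7, 31.5 and 25.9 FPKM. Females 1 to 5 had 28.6, 26.2, 31.6, 45.0 and 38.7 FPKM. The sexes overlapped throughout, with 30.4 ± 5.76 FPKM in the males and 34.0 ± 7.72 FPKM in the females (SD, n = 5 per sex). Its log2 fold change was 0.15 (95% interval -0.21 to 0.51), with a limma adjusted p of 0.725 and an exact permutation p of 0.444. With 1 rat left out it ranged from 0.042 without female 4 to 0.25 without male 2, and was 0.24 without female 2, none of them called.

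Aqp2 (ENSRNOG00000054378, chromosome 7, 141237768 to 141245165, plus strand), the vasopressin-regulated apical channel, ran the other way from Aqp1. In males 1 to 5 it was 112, 70.1, 74.8, 65.9 and 74.3 FPKM. Females 1 to 5 had 88.5, 100, 144, 132 and 123 FPKM. The 4 males other than male 1 lay below every female, while male 1 lay above females 1 and 2. The log2 fold change was 0.57 (SE 0.17, 95% interval 0.20 to 0.94), with an adjusted p of 0.122 by limma and an exact permutation p of 0.0238. Leaving out male 1 brought the limma adjusted p to 0.0364, the single call of an aquaporin gene in any fit with a rat left out. The exact permutation p was 0.0556 without male 2, 3, 4 or 5 and without female 3. As a share of the summed aquaporin FPKM, Aqp2 made up 10.7% ± 3.01 in males and 17.9% ± 3.40 in females (SD, n = 5 per sex).

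Aqp3 (ENSRNOG00000009797, chromosome 5, 57423734 to 57429245, minus strand) encodes the basolateral channel of the principal cell for water and glycerol. It lies 51494 bases from Aqp7. Males 1 to 5 had 78.3, 67.2, 67.2, 59.8 and 49.95 FPKM. In females 1 to 5 it was 54.3, 47.5, 75.2, 78.5 and 73.5 FPKM. No rat of either sex stood outside the range of the other by more than a few FPKM, and the means of 64.5 ± 10.5 and 65.8 ± 13.9 FPKM (SD, n = 5 per sex) gave a log2 fold change of 0.02 (95% interval -0.34 to 0.38, limma adjusted p = 0.979), whose sign turned under quantile normalization (-0.043) and under scaling by total reads (-0.059). Without female 2 it was 0.13 (exact permutation p = 0.405).

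Aqp4 (ENSRNOG00000016043, chromosome 18, 6765945 to 6782996, minus strand), the other basolateral channel, was expressed far below Aqp3. Its FPKM was 3.53, 2.25, 2.13, 2.80 and 3.13 in males 1 to 5. Females 1 to 5 had 3.37, 5.66, 3.58, 3.21 and 2.96 FPKM. Female 2, the library with the Slc14a2 reads, was highest, and the remaining females lay between 2.96 and 3.58 FPKM, in the upper part of the male range or just above it. The log2 fold change was 0.41 (95% interval -0.02 to 0.85), with a limma adjusted p of 0.345 and an exact permutation p of 0.0873. The exact permutation p was 0.0238 under quantile normalization, 0.0476 without male 1 and 0.0476 without female 5. The means were 2.77 ± 0.588 FPKM in males against 3.75 ± 1.09 FPKM in females (SD, n = 5 per sex), and the female mean without female 2 was 3.28 ± 0.261 FPKM (SD, n = 4, log2 fold change 0.26, exact permutation p = 0.167).

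**Figure D3:**
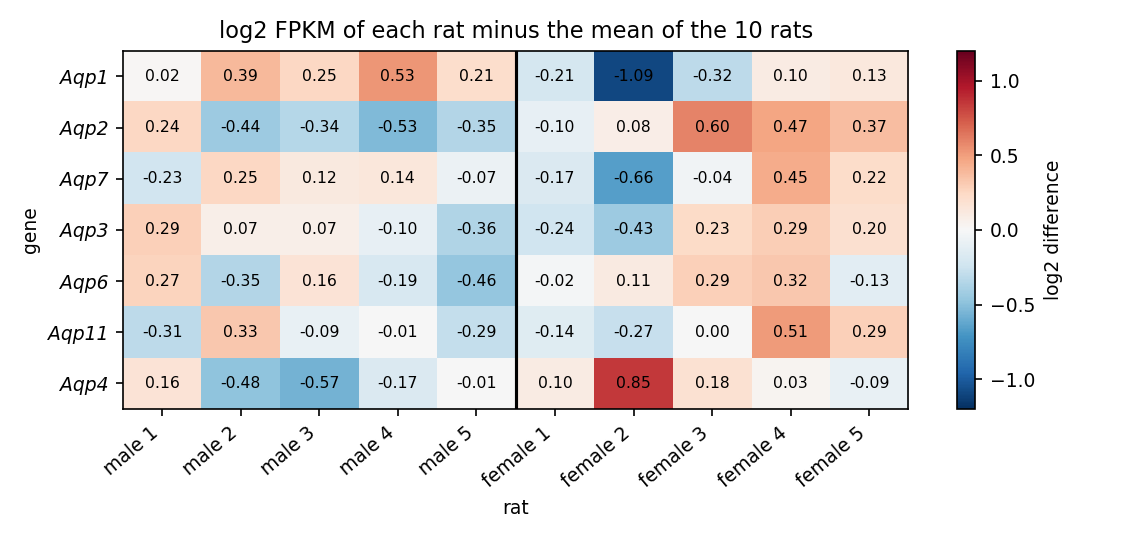
Log2 FPKM of 7 aquaporin genes in each rat, minus the mean of the 10 rats for that gene. Red is above and blue below that mean, and the black line parts males from females. Aqp1 is low (-1.09) and Aqp4 high (0.85) in female 2, and Aqp2 is below its mean in 4 of 5 males and above it in 4 of 5 females.

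The members that are best known outside the renal cortex were low. Aqp5 (ENSRNOG00000051970), a channel of secretory glands, had 24, 14, 16, 21 and 10 reads in males 1 to 5 and 6, 48, 26, 24 and 19 reads in females 1 to 5. Female 2 was highest and female 1 lowest, and the mean was 0.717 ± 0.246 FPKM in males against 1.10 ± 0.788 FPKM in females (SD, n = 5 per sex, exact permutation p = 0.381). Without female 2 the female mean was 0.781 ± 0.367 FPKM (SD, n = 4, exact permutation p = 0.770). Without female 1 the difference, females minus males, went from 0.386 to 0.600 FPKM (exact permutation p = 0.0635). The Aqp5 gene starts 3878 bases beyond the end of Aqp2 on chromosome 7, and Aqp6 follows 6005 bases beyond Aqp5. None of the aquaporin genes overlaps another gene of the table.

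Aqp9 (ENSRNOG00000061883), a glycerol channel best known in the liver, had 11, 4, 8, 7 and 4 reads in males 1 to 5. It had 5, 3, 2, 3 and 4 reads in females 1 to 5. At these counts a read or so decides the order of rats: the exact permutation p was 0.0476 in FPKM, 0.0556 in log2(FPKM + 0.1) and above 0.05, up to 0.135, without any single rat other than male 2 or male 5, and the limma adjusted p was 0.421. Aqp8 (ENSRNOG00000014652), a channel of liver and exocrine glands, had 0 or 1 read in each male and 5, 1, 0, 0 and 2 reads in females 1 to 5. It was under the filter, and 3 reads was taken as the limit of detection, which 1 of the 10 libraries passed. A sex difference in Aqp8 was not detectable at this depth.

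Aqp6, which has the anion-conducting channel of intercalated cells and was not among the 9, ranged from 32.7 to 54.3 FPKM in the males and from 41.3 to 56.4 FPKM in the females (exact permutation p = 0.222, limma adjusted p = 0.515). Of the 5 intercalated cell markers 1 was called by limma, Atp6v0d2, a subunit of the proton pump, with 32.1 ± 3.31 FPKM in males against 48.3 ± 8.65 FPKM in females (SD, n = 5 per sex, adjusted p = 0.0351). It was called in 3 of the 10 fits with a rat left out, with an adjusted p by limma of up to 0.0937. All 5 had a higher mean in females, with 1 of 5 called against 2.4% of all genes tested, 5 of 5 with an unadjusted limma p under 0.05 against 15.7%, and 5 of 5 with an exact p of at most 0.05 against 14.8%. Their sums were 126 to 201 FPKM in the males and 185 to 265 FPKM in the females.

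Ratios of 2 members within a rat do not depend on the factor by which a library is scaled. All 15 ratios among the 6 members with a mean of at least 1 FPKM were formed after the single-gene values had been seen, and are given as a description. The ranges of the sexes did not overlap for 3 of the 15. Aqp2 over Aqp3 was 1.44, 1.04, 1.11, 1.10 and 1.49 in males 1 to 5 and 1.63, 2.11, 1.91, 1.68 and 1.67 in females 1 to 5, so every female lay above every male. Aqp1 over Aqp7 ranged from 4.80 to 5.74 in males and from 3.25 to 4.26 in females. Aqp1 over Aqp11 ranged from 12.0 to 16.7 in males and from 6.53 to 11.0 in females. Against each of the 13169 other genes whose mean reached 1 FPKM, the ratio separated the sexes for 23.2% of genes with Aqp1, 7.08% with Aqp2, 2.16% with Aqp3, 8.93% with Aqp4, 2.74% with Aqp7 and 2.47% with Aqp11. Separation is thus common for any ratio with Aqp1.

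**Figure D4:**
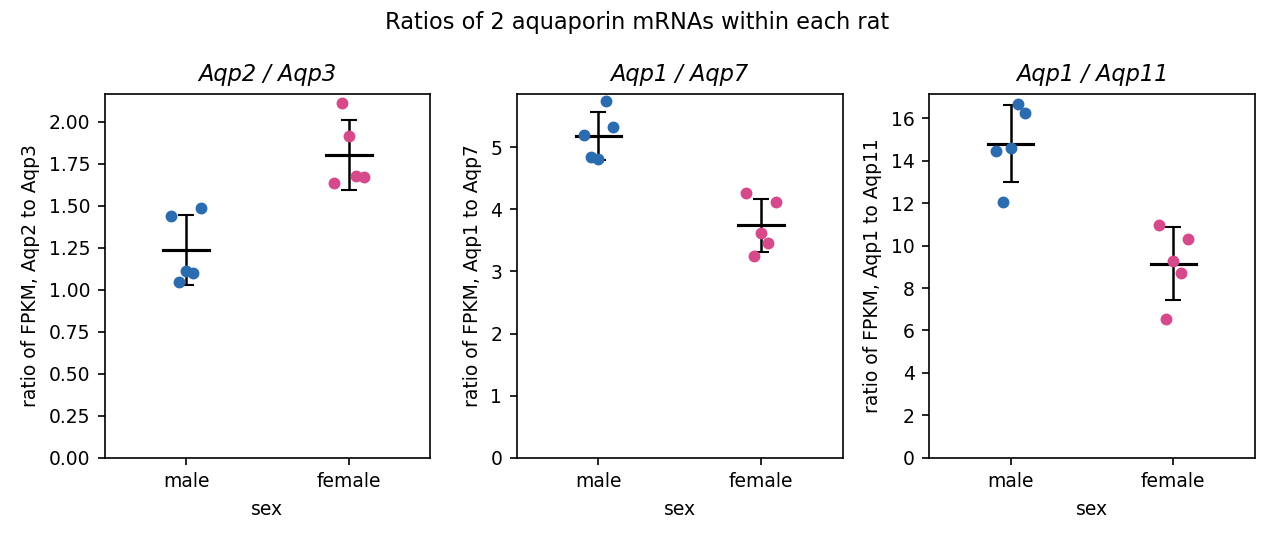
Ratio of FPKM of Aqp2 to Aqp3, Aqp1 to Aqp7 and Aqp1 to Aqp11 in each rat, with males in blue, females in pink, the mean as a line and the SD as bars (n = 5 per sex). The sexes do not overlap in any of the 3 panels, which were picked from 15 ratios because they do not.

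How the channels varied around the mean of their own sex is given by Pearson correlations of log2(FPKM + 0.1) over the 10 rats. Aqp1, Aqp7 and Aqp11 varied together (0.931 for Aqp1 with Aqp7, 0.906 for Aqp7 with Aqp11, 0.761 for Aqp1 with Aqp11). Aqp2 and Aqp3 varied together (0.757), and Aqp3 also went with Aqp1 (0.523), Aqp7 (0.624) and Aqp11 (0.573). The value for Aqp1 with Aqp2 was 0.0288, and Aqp4 ran against Aqp1 (-0.824) and Aqp7 (-0.847). Some of the rats shared a litter and no p is given. Without female 2, over 9 rats, the values were 0.845 for Aqp1 with Aqp7, 0.947 for Aqp7 with Aqp11, 0.781 for Aqp1 with Aqp11 and 0.775 for Aqp2 with Aqp3. The pairs that moved most were Aqp1 with Aqp3 (0.0014), Aqp1 with Aqp2 (-0.410), Aqp3 with Aqp4 (from -0.487 to -0.0651) and Aqp2 with Aqp4 (from 0.101 to 0.468). Aqp3 with Aqp7 was 0.317 and with Aqp11 0.407. Aqp4 with Aqp1 was -0.548 and with Aqp7 -0.656. The genes most like Aqp1 out of 11779 were Glb1l2 (0.979) and Gatb (0.977). The 3 most like Aqp7 were Gcdh (0.988), Nipsnap1 (0.983) and Pmpca (0.982), and for Aqp11 Syce2 (0.981), Dld (0.974) and Chuk (0.967). For Aqp2 they were Ddn (0.970), Tie1 (0.951) and Hdac5 (0.938), for Aqp3 Tprn (0.974), Asl (0.973) and Nr2f6 (0.971), and for Aqp4 Mapre2 (0.954), Sorbs3 (0.954) and Pgm2 (0.922). Each was picked as highest of 11779 values over only 10 rats, where high values can arise by chance, and shared control was not tested.

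The level of the collecting duct channels was set beside 6 other genes of the principal cell (Scnn1g, Avpr2, Hsd11b2, Fxyd4, Elf5 and Gata3). Their summed FPKM ranged from 179 to 297 in males and from 209 to 331 in females, with 6 of 6 means higher in females, where 8599 of all 17631 genes tested had a positive log2 fold change. Of the 6 genes 1 was called, Avpr2, against 2.4% of all genes. Per summed marker, Aqp2 was 0.356 ± 0.0406 in males and 0.425 ± 0.0443 in females (SD, n = 5 per sex, exact permutation p = 0.0476). Aqp3 per summed marker was 0.290 ± 0.0203 in males and 0.240 ± 0.0449 in females (SD, n = 5 per sex, exact permutation p = 0.0397), lowest in female 2. The difference, females minus males, was -0.0505, and -0.0330 without female 2 (exact permutation p = 0.0635). Aqp4 per summed marker was 0.0127 ± 0.00334 in males and 0.0138 ± 0.00425 in females (exact permutation p = 0.643), and the sign of that difference turned without female 2 (-0.000446). With 1 rat left out in turn, the exact permutation p ranged from 0.0159 to 0.0794 for Aqp2 and from 0.00794 to 0.0952 for Aqp3. It was above 0.05 for Aqp2 without male 2, 3 or 4 or female 1, 3, 4 or 5, and for Aqp3 without male 2, 3 or 4 or female 1, 2, 3 or 4. The marker sum is mostly Hsd11b2, the glucocorticoid-inactivating enzyme that averaged 178 FPKM in males against 216 FPKM in females. With the geometric mean of the markers, which weighs them equally, the exact permutation p became 0.651 for Aqp2 and 0.0873 for Aqp3.

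**Figure D5:**
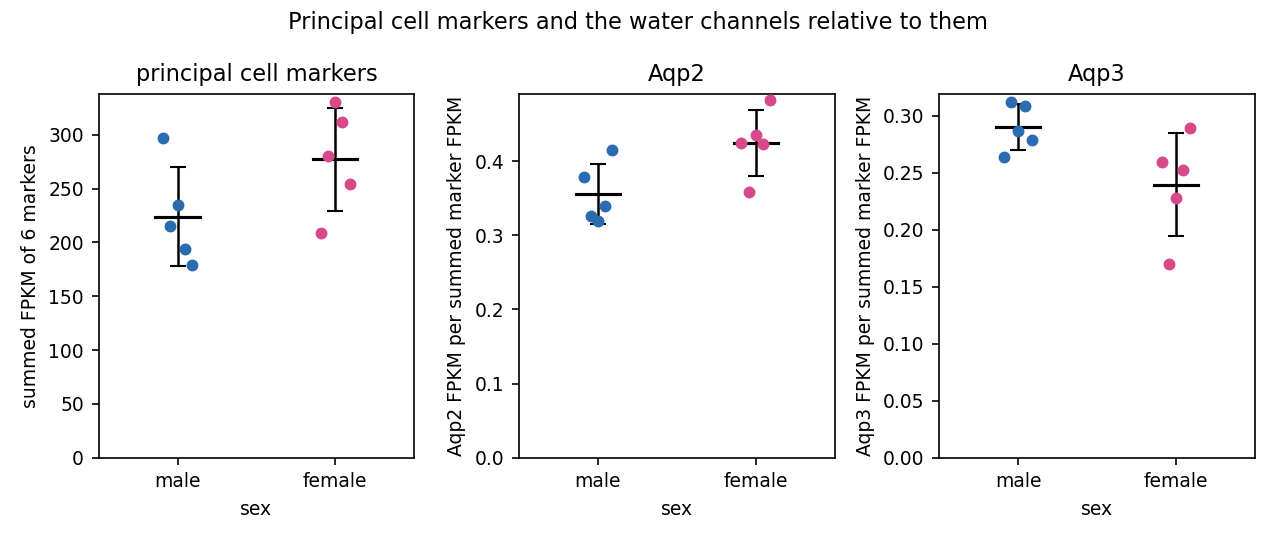
Summed FPKM of 6 principal cell markers, and Aqp2 and Aqp3 FPKM per summed marker FPKM, in each rat, with males in blue, females in pink, the mean as a line and the SD as bars (n = 5 per sex). The ranges of the sexes overlap in all 3 panels. Aqp2 per marker has its higher mean in females and Aqp3 per marker in males.

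Of 31 genes known for the transcription, phosphorylation, shuttling and turnover of AQP2 (32 rows, as Gnas has 2), 3 were called by limma, 1 higher and 2 lower in females, against 2.4% of all genes tested. Avpr2, the V2 receptor, was 15.3, 14.6, 14.6, 11.2 and 12.5 FPKM in males 1 to 5 and 18.3, 16.4, 18.7, 19.0 and 19.6 FPKM in females 1 to 5, with every female above every male (log2 fold change 0.44, SE 0.10, limma adjusted p = 0.0469). Ptger3, the prostaglandin EP3 receptor that opposes vasopressin through an inhibitory G protein, was 33.1, 34.4, 34.4, 42.2 and 30.3 FPKM in males and 27.4, 16.2, 23.4, 23.4 and 24.2 FPKM in females, with every female below every male (log2 fold change -0.62, SE 0.14, limma adjusted p = 0.0435). Adcy3, an adenylyl cyclase, fell from 2.34 ± 0.311 to 1.41 ± 0.267 FPKM (SD, n = 5 per sex, log2 fold change -0.70, limma adjusted p = 0.0480). All 3 lay just under the threshold, and leaving out 1 rat at a time left 0 to 2 of them called, with an adjusted p by limma of up to 0.125 for Avpr2, 0.0990 for Ptger3 and 0.117 for Adcy3.

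The other 28 genes were not called. Ezr, a linker of membrane to actin, was 189 ± 23.4 FPKM in males against 245 ± 30.5 FPKM in females (exact permutation p = 0.0238, limma adjusted p = 0.156), Akap7, an anchor of protein kinase A, was 6.08 ± 1.15 and 8.57 ± 1.34 FPKM (exact permutation p = 0.00794, limma adjusted p = 0.153), and Nedd4, a ubiquitin ligase, was 104 ± 4.41 and 95.01 ± 3.44 FPKM (exact permutation p = 0.00794, limma adjusted p = 0.389, SD, n = 5 per sex for each). The kinase subunit Prkaca (22.7 and 24.1 FPKM) and the cyclase Adcy6 (22.1 and 23.4 FPKM) differed by less than the spread between rats. Over the list the median log2 fold change was 0.05. Ezr, Akap7, Nedd4, Prkaca and Adcy6 were chosen after their values were seen.

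A list of 7 genes of glycerol handling held glycerol kinase, lipases and dehydrogenases of glycerol-3-phosphate. Not all of them act on free glycerol, the solute that AQP3, AQP7 and AQP9 also carry. By limma 0 of the 6 that passed the filter were called, against 2.4% of all genes tested. An unadjusted p under 0.05 was found for 2 of the 6, against 15.7%, and 6 of 7 had a higher mean in females, where 8599 of all 17631 genes tested had a positive log2 fold change. Gpd1, the cytosolic glycerol-3-phosphate dehydrogenase, was 92.6 ± 20.3 FPKM in males against 150 ± 44.7 FPKM in females (SD, n = 5 per sex, limma adjusted p = 0.184), and without female 2 it was called (adjusted p = 0.0419). Mgll, monoglyceride lipase, was 162 ± 40.9 and 186 ± 54.9 FPKM (limma adjusted p = 0.790), and Gk, glycerol kinase, was 35.2 ± 4.998 and 49.0 ± 18.5 FPKM (limma adjusted p = 0.446).

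Markers of other cells that express aquaporins gave the following, in short lists where 0 called is no result about the cells. Of 6 endothelial genes 0 were called, against 2.4% of all genes tested. Their sums were 151 to 194 FPKM in the males and 147 to 220 FPKM in the females. Plvap, a protein of fenestrae, averaged 67.7 FPKM in males against 75.8 FPKM in females, and Emcn and Tie1, proteins of the endothelial surface, averaged 44.5 against 52.9 and 18.2 against 17.3 FPKM. The erythroid list was matched for 2 of 4 genes, Hbb (56.2 against 73.7 FPKM) and Alas2 (0.498 against 0.668 FPKM). Of these 0 were called, against 2.4% of all genes tested, with sums of 20.3 to 124 and 11.7 to 130 FPKM. Of 4 neutrophil genes 3 passed the filter and 0 were called, against 2.4% of all genes tested. The 4 summed to 1.32 to 14.0 FPKM in the males and 0.750 to 4.02 FPKM in the females. S100a8 averaged 2.46 ± 3.23 against 0.304 ± 0.169 FPKM, with 1 male at 7.79 FPKM, S100a9 averaged 1.76 ± 1.87 against 0.872 ± 0.971 FPKM, and Csf3r averaged 0.884 ± 0.180 against 0.674 ± 0.200 FPKM (SD, n = 5 per sex). The adipocyte list was split, with 1 of the 2 genes that passed the filter called, against 2.4% of all genes tested. The lipid droplet gene Cidec was lower in females (8.94 ± 2.55 against 2.32 ± 0.666 FPKM, SD, n = 5 per sex, limma adjusted p = 0.0016). Adipoq, the hormone adiponectin, was 3.04 to 4.49 FPKM in the males and 4.65 to 9.99 FPKM in the females, every female above every male, and did not pass the test over all genes (exact permutation p = 0.00794, limma adjusted p = 0.0731). The defining markers Plin1 and Lep were at or near 0. Of 3 inner medulla genes 0 were called, against 2.4% of all genes tested. Besides Slc14a2 these were Akr1b1 (27.1 against 24.8 FPKM) and Slc6a12 (0.777 against 0.708 FPKM). The part of these cells in the aquaporin values was not tested.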

How the data were processed

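Poly(A) RNA of renal cortex was sequenced by a provider, and the reads were mapped with HISAT2 to Rnor_6.0. The submitters' processing notes also name fastp, StringTie 1.3.3b and featureCounts 1.5.0-p3. Whether counting used strand is not given in the sources used here. The authors deposited FPKM per gene in 1 table, scaled by gene length and by a factor per library. Dividing by the value of 1 read gave whole reads for 100% of values (tolerance 0.001), so depth was known. That factor is not the total of reads on genes. Median-ratio scaling of the deposited FPKM gave each library the same further factor (1.01), so they already carry a scaling of that kind. Differential expression was tested with limma 3.58.1 (lmFit, eBayes with trend, R 4.3.3) on log2(FPKM + 0.1), with genes at a mean of at least 0.1 FPKM and Benjamini-Hochberg adjustment. A fold change on this scale is understated for low genes. Single values had an exact permutation test (252 splits, two-sided; Python 3.11.15, scipy 1.17.1). Intervals are 95% limma intervals.

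The members, lists and tests were chosen with earlier results of these data known. The text names all members, the other aquaporin rows, genes of each list with an adjusted p of at most 0.05 or otherwise up to 3 with the highest mean, and the 3 genes most like each member, of which 1 is not reported here. A few list genes beyond this rule are named because of their values. Alternatives were 2 pseudocounts, no filter or a filter at 1 FPKM, median-ratio, quantile and total-read scaling, eBayes without trend or robust, limma-voom on recovered reads, a replicate block and leaving out each rat. Total-read scaling, the ratios between members and correlations without female 2 were added after the data were seen. The procedures were tested on simulated data with changes larger than those of Aqp1 and Aqp2, so the power for such differences was not measured. Promoters of 8 of the 9 members were matched by symbol in RefSeq (GRCr8).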

Additional observations from a re-analysis of the deposited data

Results flagged for a closer look

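In 24 groups of 5 rats examined for a value far from the rest, 2 stood out, where chance alone gives about 1 in 20. Aqp2 in male 1 was 112.5 FPKM, far above the 65.9 to 74.8 FPKM of the other males. Aqp4 in female 2 was 5.661 FPKM, above the 2.96 to 3.58 FPKM of the other females, in the library that also held the Slc14a2 reads.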

How the results depend on the processing

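No aquaporin gene was called by limma under the other pseudocounts and filters, quantile or total-read scaling, the eBayes settings, the replicate block or limma-voom. Median-ratio scaling multiplied all libraries by 1 factor, so it bears little on stability. With 1 rat left out the count ranged from 0 to 1, the call being Aqp2 without male 1. The log2 fold change ranged from -0.66 to -0.35 for Aqp1 (adjusted p 0.190 to 0.355) and from 0.49 to 0.70 for Aqp2 (adjusted p 0.0364 to 0.248). The sign of Aqp3 turned under quantile normalization (log2 fold change -0.043, FPKM difference -1.89) and total-read scaling (-0.059 and -2.21), and with 1 rat left out it ranged from -0.072 to 0.13 and from -2.35 to 5.86 FPKM. Aqp7 ranged from -0.20 to 0.074 and from -10.0 to 5.14 FPKM. The count of members with an exact p of at most 0.05 was 3, and became 1 (Aqp1) under total-read scaling and 0 to 3 with 1 rat left out, being 0 without male 3 and without male 4. Their exact p ranged from 0.0238 to 0.0635 for Aqp1, 0.0159 to 0.0556 for Aqp2 and 0.0159 to 0.135 for Aqp9.

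In place of 3 genes of AQP2 control, 2 were called with a pseudocount of 0.01 and 2 with a filter at 1 FPKM. The count was 0 with no filter, 1 under total-read scaling, 1 by eBayes without trend, and 0 to 2 with 1 rat left out. Glycerol handling gave 0 to 1. With the geometric mean of the markers the difference, females minus males, was 0.756 for Aqp2, -1.90 for Aqp3 and -0.0134 for Aqp4, which reversed. With 1 rat left out the differences per summed marker were 0.0543 to 0.0854, -0.0628 to -0.0330 and -0.000446 to 0.00235. Over all genes, 223 were called higher and 201 lower in females, against 170 and 235 under total-read scaling, and limma-voom on the recovered reads called 504 genes. The cause was not tested.

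Rats with the same replicate number did not deviate together more than others (correlations -0.0975 to 0.0708, against -0.13 to 0.119 for other pairs). The number thus showed no pairing here, but these correlations cannot exclude one, and litter is not given per rat. With the replicate block, 231 genes were called in place of 424, 0 genes of AQP2 control, and the adjusted p was 0.284 for Aqp1 and 0.256 for Aqp2. The blocked exact test can give no p under 0.0625, so its count of 0 members and its p for the difference per marker of Aqp2 (0.0689, p = 0.0625) and Aqp3 (-0.0505, p = 0.188) under an exact sign-flip test say nothing on stability. Depth limits Aqp8 and Aqp9.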
